A study of Mus musculus with 8 samples.

Results

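The genes described here are 10 effector genes by which macrophage polarization is commonly read. The 9 reported here are Mrc1, Retnla, Chil3 and Cd163 for M2 macrophages, Nos2, Il6 and Il12b for M1 macrophages, and the regulatory cytokine genes Il10 and Il1rn. The genes were chosen by symbol, each matched 1 row, and they are 10 of the 54532 genes in the deposited count table. The libraries hold RNA of bone marrow-derived macrophages (BMDMs) from wild-type (WT) mice and from mice lacking Gsdmd (Gsdmd-/-), 4 per genotype. Gsdmd encodes gasdermin D, the pore-forming protein that executes pyroptosis. The marrow donors are described as female C57BL/6J mice aged 6 to 8 weeks, and the cells were grown for 6 days with M-CSF, the growth factor of macrophages, at 20 ng/ml. The libraries of both genotypes are labelled as untreated, so no interleukin-4, interferon-gamma, lipopolysaccharide or thymic stromal lymphopoietin (TSLP) had been added. The WT mice were bought, and the Gsdmd-/- mice, whose backcross is not given in the sources used here, were a gift kept at the authors' animal facility, so genotype and source of the mice cannot be told apart. Neither the labels nor the methods say that each library came from its own mouse, and the p-values below then measure only the spread between these libraries, which may be technical.

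Polarization describes how a macrophage adjusts its gene expression to the signals around it. Interleukin-4 and interleukin-13 act through the interleukin-4 receptor and STAT6 and induce M2 genes such as Retnla, Chil3 and Mrc1. Interferon-gamma and Toll-like receptor ligands act through IRF1 and NF-kB and induce M1 genes such as Nos2, Il6 and Il12b. The study used the protein of Mrc1, CD206, as its M2 marker and NOS2 as an M1 marker in TSLP-treated cells. The comparison of the libraries asks whether the loss of Gsdmd had already shifted these genes before any such signal was given.

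Total counts lay between 14935114 and 16794810 per library. Levels are given as CPM, the count of a gene after scaling to the effective size of its library. Where a gene had 0 counts, up to 3 counts were allowed for, or 0.177 to 0.199 CPM, and such a limit covers counting error only. Gsdmd itself had 63.5 to 95.5 CPM in WT and 14.4 to 18.2 CPM in Gsdmd-/- libraries. WT 2 and WT 3 stood apart from the other libraries on the first principal component, which held 43.6% of the variance, with scores of 45.4 and 38.8 against -25.9 to -7.19. Results that rest on those libraries are given with and without them. Of the 15 macrophage markers listed, 13 had enough counts for a test and 1, Timd4, a marker of some resident macrophages, had 0 counts. Their summed level was 15500 to 24100 CPM in WT and 19700 to 23700 CPM in Gsdmd-/- libraries. Of the 13 tested, 3 had a log2 fold change (Gsdmd-/- against WT) above 0 and 10 below. Their median was -0.24, against -0.0068 for all genes tested. By edgeR 0 had an adjusted p under 0.05. At an unadjusted p under 0.05, 2 were lower and 0 higher, where 7.30% and 4.74% of all genes tested were.

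For none of the 9 polarization effector genes was a difference between WT and Gsdmd-/- BMDMs detected beyond the spread of the libraries. Of the 9, only Mrc1, Chil3, Cd163 and Il1rn had enough counts for the edgeR quasi-likelihood test, and 0 of these 4 had an adjusted p, or an unadjusted p, under 0.05. The unadjusted part of that count depended on single libraries: it was 2 (Mrc1 and Il1rn) without WT 4, where 20.5% of all genes had an unadjusted p under 0.05, and 1 (Chil3) without WT 2 and WT 3, where 13.1% had. Of all 12911 genes tested, 0.349% had an adjusted p under 0.05. At the looser cutoff drawn in the study's volcano plot, the count was again 0. That cutoff, an unadjusted p under 0.05 with a log2 fold change of 0.5 or more in size, was passed by 4.83% of all genes tested. DESeq2, limma voom and the exact test of edgeR also called 0 of them at an adjusted p under 0.05. The ranges of both genotypes overlapped for each of the 9, whereas 7.60% of the genes tested showed no overlap. Retnla, Nos2, Il6, Il12b and Il10 were at or near 0 counts in both genotypes. The plot of CPM by library shows the 9 genes in their 3 roles.

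**Figure D1:**
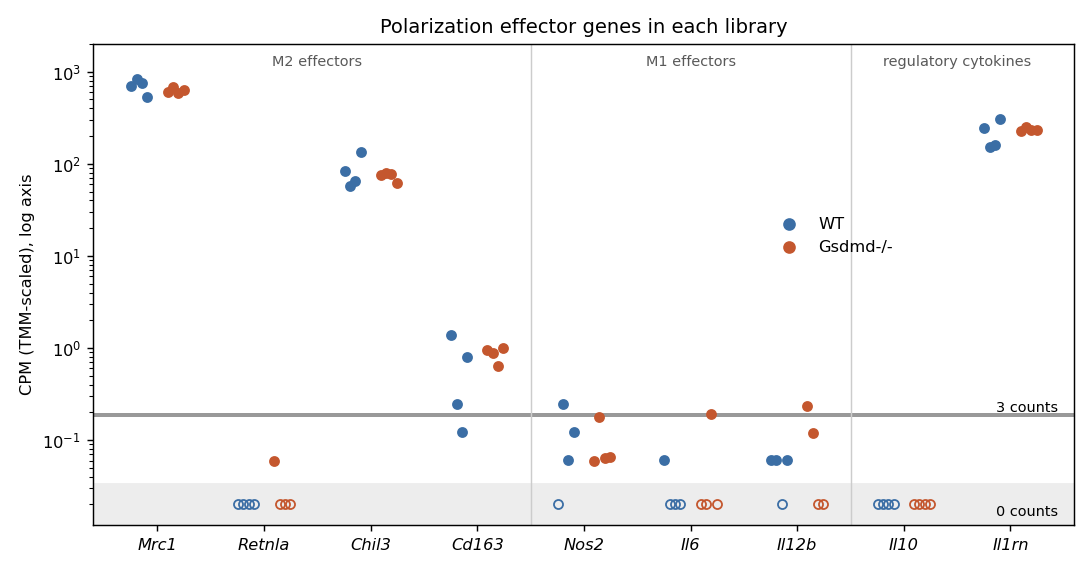
CPM of the 9 polarization effector genes on a log axis, with 1 point per library (WT in blue, Gsdmd-/- in red), the grey line at 3 counts and open circles in the shaded band for libraries with 0 counts. Mrc1, Il1rn and Chil3 lie between 57.8 and 828 CPM, while Retnla, Nos2, Il6, Il12b and Il10 lie at or below 0.244 CPM in every library.

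Among the M2 effectors, Mrc1 (ENSMUSG00000026712, chromosome 2 from 14229392 to 14332057, plus strand, GRCm38) was the most abundant. It encodes the mannose receptor CD206, an endocytic lectin of macrophages. Its level in WT libraries 1 to 4 was 702, 828, 755 and 535 CPM, and in Gsdmd-/- libraries 1 to 4 it was 604, 674, 580 and 626 CPM. WT 2 and WT 3 were the highest of the 8 libraries and WT 4 the lowest, so the Gsdmd-/- values fell inside the WT range. Mrc1 averaged 705 ± 124 CPM in WT and 621 ± 40.3 CPM in Gsdmd-/- libraries (SD, n = 4 each). The log2 fold change was -0.18 (95% interval -0.47 to 0.10, adjusted p = 0.616, edgeR quasi-likelihood test), and the exact permutation test gave p = 0.257, two-sided. With WT 2 and WT 3 left out, the log2 fold change of Mrc1 was 0. With WT 4 left out, it was -0.29 with an unadjusted p of 0.0101 and an adjusted p of 0.135, and every Gsdmd-/- library lay below the other 3 WT libraries, where 17.3% of all genes tested showed no overlap. The microRNA gene Mir511 lies inside Mrc1 at 14261003 to 14261081 and had 2 counts in all.

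Chil3 (ENSMUSG00000040809, chromosome 3 from 106147554 to 106167564, minus strand) encodes the secreted chitinase-like protein Ym1. Its level was 82.6, 57.8, 65.7 and 133 CPM in WT 1 to 4 and 76.4, 80.1, 77.0 and 61.2 CPM in Gsdmd-/- 1 to 4. WT 4 held the highest and WT 2 the lowest value, and the Gsdmd-/- libraries lay between them. The means were 84.8 ± 33.7 CPM in WT and 73.7 ± 8.46 CPM in Gsdmd-/- (SD, n = 4 each). The log2 fold change was -0.20 (95% interval -0.71 to 0.30, adjusted p = 0.771, edgeR quasi-likelihood test). The exact permutation test gave p = 0.714, two-sided. Without WT 2 and WT 3 the log2 fold change was -0.55 with an unadjusted p of 0.0115, which passes the study's cutoff, and an adjusted p of 0.200, and the genotypes then did not overlap. In that fit 6.19% of all genes tested passed the cutoff and 22.7% showed no overlap. Without WT 4 alone it was 0.10, so the sign of the Chil3 difference turned on which WT libraries were counted. Of the 50-base windows in its exons, 26.9% also occur in Chil4 or Gm6522, and of the 100-base windows 4.93% do, so part of its reads could have been counted elsewhere. Chil4 held 7 counts in all, 3 of them in WT libraries, and Gm6522 held 1.

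Cd163 (ENSMUSG00000008845, chromosome 6 from 124304656 to 124330527, plus strand) encodes the scavenger receptor that takes up haemoglobin bound to haptoglobin. It had 23, 4, 2 and 13 counts in WT 1 to 4 and 16, 15, 10 and 15 counts in Gsdmd-/- 1 to 4. WT 1 was the highest library and WT 2 and WT 3 were the lowest, at 0.244 and 0.122 CPM against 1.40 CPM in WT 1. The means were 0.639 ± 0.584 CPM in WT and 0.866 ± 0.161 CPM in Gsdmd-/- (SD, n = 4 each). The log2 fold change was 0.43, with a wide 95% interval of -0.84 to 1.71 and an adjusted p of 0.809 in the edgeR quasi-likelihood test. The exact permutation test gave p = 0.457, two-sided. The log2 fold change was -0.34 when WT 2 and WT 3 were left out, and 1.15 with an adjusted p of 0.365 when WT 1 was left out.

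Retnla (ENSMUSG00000061100, chromosome 16 from 48842551 to 48844461, plus strand), which encodes the secreted M2 protein RELM-alpha, had 1 count in Gsdmd-/- 1 and 0 counts in the other 7 libraries. A difference in Retnla was not detectable at this depth.

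**Figure D2:**
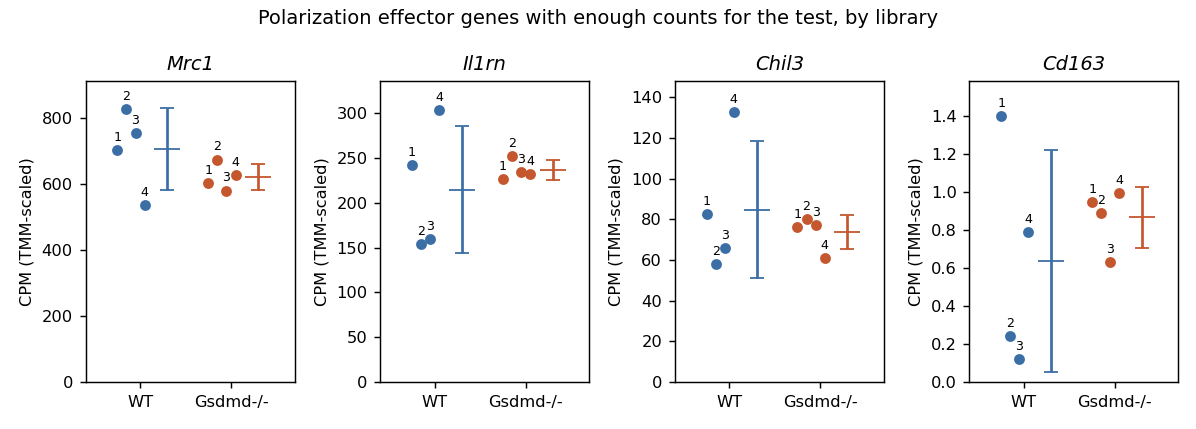
CPM of Mrc1, Il1rn, Chil3 and Cd163 on linear axes that start at 0, with 1 numbered point per library and, beside the points, the mean with its SD over the 4 libraries of a genotype. The Gsdmd-/- libraries sit close together, between 580 and 674 CPM for Mrc1 and between 227 and 252 CPM for Il1rn, inside the wider WT ranges of 535 to 828 CPM and 154 to 303 CPM.

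The M1 effectors were close to silent. Nos2 (ENSMUSG00000020826, chromosome 11 from 78920787 to 78960254, plus strand), which encodes the inducible nitric oxide synthase, had 0, 4, 1 and 2 counts in WT 1 to 4 and 1, 3, 1 and 1 counts in Gsdmd-/- 1 to 4. The 7 counts in WT and 6 in Gsdmd-/- gave a ratio of 0.870 (95% counting interval 0.242 to 3.02). Il12b (ENSMUSG00000004296, chromosome 11 from 44400063 to 44414033, plus strand), which encodes the p40 subunit shared by interleukin-12 and interleukin-23, had 1, 1, 0 and 1 counts in WT 1 to 4 and 4, 2, 0 and 0 counts in Gsdmd-/- 1 to 4. Its 3 and 6 counts gave a ratio of 2.03 (95% counting interval 0.434 to 12.5, exact permutation test, p = 0.714). Il6 (ENSMUSG00000025746, chromosome 5 from 30013114 to 30019981, plus strand), the gene of the inflammatory cytokine interleukin-6, had 1 count in WT 1, 3 counts in Gsdmd-/- 3 and 0 counts elsewhere, a ratio of 3.05 (95% counting interval 0.245 to 160). No M1 effector passed 4 counts in any library, and each of the 3 intervals includes 1.

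The 2 regulatory cytokine genes lay at opposite ends of the scale. Il10 (ENSMUSG00000016529, chromosome 1 from 131019845 to 131024974, plus strand), the gene of the anti-inflammatory cytokine interleukin-10, had 0 counts in all 8 libraries, which allows up to 0.177 to 0.199 CPM per library. Il1rn (ENSMUSG00000026981, chromosome 2 from 24336853 to 24351494, plus strand) encodes the interleukin-1 receptor antagonist, which blocks signalling by interleukin-1. Its level was 242, 154, 160 and 303 CPM in WT 1 to 4 and 227, 252, 234 and 232 CPM in Gsdmd-/- 1 to 4. WT 2 and WT 3 were the lowest libraries and WT 4 the highest, with the Gsdmd-/- libraries between them. The means were 215 ± 71.4 CPM in WT and 236 ± 10.9 CPM in Gsdmd-/- (SD, n = 4 each). The log2 fold change was 0.14 (95% interval -0.30 to 0.57, adjusted p = 0.824, edgeR quasi-likelihood test), and the exact permutation test gave p = 0.514, two-sided. With WT 1 and WT 4 alone as WT libraries, it was -0.21, and without WT 4 it was 0.35 with an unadjusted p of 0.0387 and an adjusted p of 0.221. In bulk RNA, fewer expressing cells and less RNA per cell cannot be told apart for any of these genes.

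To compare genes with each other, CPM were divided by the length of the exons in kilobases. On this scale Mrc1 had a median of 102 CPM per kb over the 8 libraries (84.0 to 130), which placed it between rank 281 and rank 533 of 21995 protein-coding genes. Chil3 followed with a median of 47.0 (35.4 to 81.4) and Il1rn with 42.1 (27.9 to 54.8), and these ranges overlapped, so their order was not resolved. Cd163 came next with 0.154 CPM per kb, ahead of Il12b with 0.0309 and Nos2 with 0.0147, all with overlapping ranges. The medians of Il6, Retnla and Il10 were 0.

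**Figure D3:**
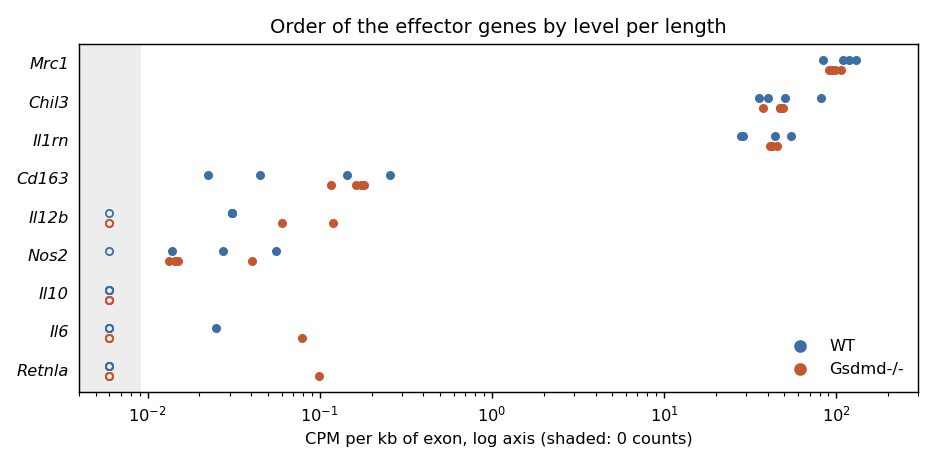
CPM per kb of exon on a log axis for the 9 genes in the order of their medians, with 1 point per library (WT above, Gsdmd-/- below) and libraries with 0 counts in the shaded band. Mrc1, Chil3 and Il1rn, between 27.9 and 130 CPM per kb, are separated by a wide gap from Cd163, whose highest library has 0.256 CPM per kb.

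Promoters are shown for 2 M2 effectors that were expressed, Mrc1 and Chil3, for 1 M2 effector with 1 count, Retnla, and for the M1 effector Il6. The sequences run from 250 bases before to 50 bases after the annotated start (RefSeq, GRCm38.p6), 5′ to 3′ on the strand of the gene, and capitals mark matches to the motifs searched. A RefSeq promoter was matched for 7 of the 9 genes, and Nos2 and Il10 were not matched.
Mrc1, chr2:14229164-14229463, plus strand: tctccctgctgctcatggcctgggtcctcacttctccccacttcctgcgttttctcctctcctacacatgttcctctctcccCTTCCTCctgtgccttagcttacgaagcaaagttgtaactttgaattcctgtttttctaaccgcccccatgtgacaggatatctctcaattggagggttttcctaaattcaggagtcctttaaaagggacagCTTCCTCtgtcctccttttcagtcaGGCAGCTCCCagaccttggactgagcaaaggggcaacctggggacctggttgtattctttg
Chil3, chr3:106167515-106167814, minus strand: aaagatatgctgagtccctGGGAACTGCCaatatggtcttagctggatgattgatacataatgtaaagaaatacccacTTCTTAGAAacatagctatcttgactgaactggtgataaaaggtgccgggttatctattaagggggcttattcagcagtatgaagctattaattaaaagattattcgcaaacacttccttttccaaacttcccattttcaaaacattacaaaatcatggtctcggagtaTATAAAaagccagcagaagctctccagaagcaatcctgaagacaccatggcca
Retnla, chr16:48842359-48842658, plus strand: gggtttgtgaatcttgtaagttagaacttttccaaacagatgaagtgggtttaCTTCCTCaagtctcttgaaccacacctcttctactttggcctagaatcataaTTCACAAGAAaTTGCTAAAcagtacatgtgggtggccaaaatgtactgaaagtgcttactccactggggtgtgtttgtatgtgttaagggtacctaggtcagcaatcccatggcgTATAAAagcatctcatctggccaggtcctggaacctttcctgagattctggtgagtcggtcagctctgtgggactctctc
Il6, chr5:30012864-30013163, plus strand: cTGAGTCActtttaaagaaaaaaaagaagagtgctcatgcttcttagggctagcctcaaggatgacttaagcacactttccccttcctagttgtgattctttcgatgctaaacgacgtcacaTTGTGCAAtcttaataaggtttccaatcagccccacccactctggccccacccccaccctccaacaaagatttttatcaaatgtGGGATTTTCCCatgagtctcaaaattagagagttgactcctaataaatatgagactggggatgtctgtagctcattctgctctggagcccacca

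The motifs were searched on both strands, and a match describes only the letters in this window. TTCNNNNGAA, the form bound by STAT6, occurs in 6.95% of 32851 mouse promoters of this length, and was found in Retnla 145 bases before the start as TTCACAAGAA, and in a pair of overlapping alternative promoters of Il1rn as TTCCCAGGAA. TTCNNNGAA, the form of other STAT factors, occurs in 8.30% and was found in Chil3 172 bases before the start as TTCTTAGAA. GGGANNNNCC, an NF-kB type of site that occurs in 20.7%, was found in Il6 as GGGATTTTCC 44 bases before the start, overlapped by a second match on the other strand, and also in Mrc1, Chil3, Cd163 and Il1rn. TGANTCA (AP-1, in 7.81%) was found in Il6 and Il1rn. TTGCNNAA (C/EBP, in 10.8%) was found in Il6 128 bases and in Retnla 134 bases before the start. GAGGAAG, a core bound by the myeloid factor PU.1, occurs in 13.6% and was found in Mrc1 at 168 and at 36 bases before the start, and in Retnla. TATAAA occurs in 13.6% and was found in Retnla 30 bases and in Chil3 3 bases before the annotated start, and on the other strand, as TTTATA, 14 bases after the start of an alternative promoter of Il1rn. None of these was found in Il12b. Retnla held the STAT6, C/EBP and TATA letters and was at 0 counts in 7 libraries, while Mrc1 held none of those and had over 500 CPM in each. Chil3, with TATA letters and the form of other STAT factors, had 57.8 to 133 CPM. Whether such letters take part in these levels was not tested.

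The 4 genes with enough counts for a test varied more among the WT than among the Gsdmd-/- libraries. The coefficient of variation of Mrc1 was 17.6% in WT and 6.48% in Gsdmd-/-, that of Chil3 39.8% and 11.5%, that of Cd163 91.4% and 18.6%, and that of Il1rn 33.2% and 4.61%. The WT spread was the larger in 9267 of the 12911 genes tested (71.8%), so this is shared with most of the table. Within WT, Mrc1 ran against the other genes. WT 2 and WT 3 had the most Mrc1 and the least Il1rn and Cd163, and WT 4 had the least Mrc1 and the most Il1rn and Chil3. The ratio of Mrc1 to Il1rn counts was therefore 2.90, 5.36, 4.73 and 1.76 in WT 1 to 4 and stayed between 2.48 and 2.70 in the Gsdmd-/- libraries.

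The same WT libraries also differed in markers of other cell states, and the genes named for this were chosen after their values had been seen. Ly6c2, a gene of inflammatory monocytes, was at 35.5, 1.53, 0.427 and 30.3 CPM in WT 1 to 4 and at 15.4 to 22.9 CPM in Gsdmd-/- libraries. C1qb, a complement gene of macrophages, was at 219, 34.9, 44.9 and 273 CPM in WT 1 to 4 and at 89.2 to 125 CPM in Gsdmd-/-. The efferocytosis receptor gene Mertk went the other way, with 141, 250, 212 and 101 CPM in WT 1 to 4 and 103 to 142 CPM in Gsdmd-/-. WT 2 and WT 3 were thus low in Ly6c2 and C1qb together with Il1rn and Cd163, and high in Mertk together with Mrc1. How far this difference between libraries takes part in the levels of the effector genes was not tested.

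**Figure D4:**
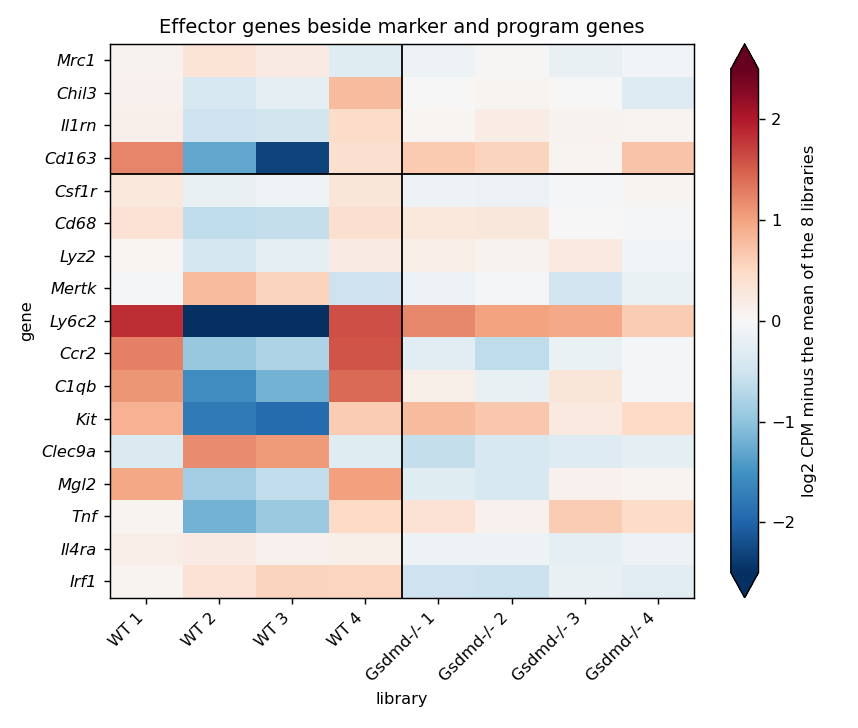
Each row is a gene and each column a library, and the colour gives log2 CPM minus the mean of the 8 libraries for that gene (colours end at -2.5 and 2.5). WT 2 and WT 3 are low in Ly6c2 (-2.70 and -4.54), Kit (-1.77 and -1.92) and Cd163 (-1.31 and -2.31) and high in Mertk (0.80 and 0.56) and Mrc1 (0.33 and 0.20).

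Marker lists of other cells that a marrow culture could hold were read the same way. The 6 monocyte markers, which include Chil3, summed to 63.7 to 181 CPM in WT and 84.0 to 104 CPM in Gsdmd-/- libraries. The 12 mast cell and basophil markers, most of it from Kit, summed to 18.1 to 82.4 CPM and 55.4 to 77.5 CPM, with Mcpt4 and Tpsab1 at 0. The 8 eosinophil markers summed to 51.8 to 93.1 CPM and 47.2 to 52.3 CPM, and the 10 dendritic cell markers to 24.3 to 53.6 CPM and 17.8 to 22.6 CPM, with Siglech at 0. In both of these lists WT 2 and WT 3 had the highest sums. Neutrophil markers summed to 5.42 to 7.94 CPM in WT and 7.17 to 7.80 CPM in Gsdmd-/- with Ly6g and Retnlg at 0, lymphocyte markers to 18.9 to 31.7 CPM and 24.8 to 29.5 CPM with Ncr1 at 0, and stromal markers to 3.06 to 8.46 CPM and 3.90 to 6.03 CPM. Of 23 tested genes in the lists of other cells, Chil3 left out, 0 had an adjusted p under 0.05 with edgeR or DESeq2, and 3 had an unadjusted p under 0.05 and passed the study's cutoff, which 4.83% of all genes tested did. These were Siglecf, Ear2 and Clec9a, with log2 fold changes of -0.54, -1.28 and -0.95, in each of which WT 2 and WT 3 were the highest libraries. In a fit without WT 2 and WT 3, made for these genes after the data were seen, the values were -0.20, -0.27 and -0.06 with unadjusted p of 0.0964, 0.379 and 0.633, so that none of the 3 passed. In that fit 3 other markers, Ly6c2, Ccr2 and Kmo, were lower in Gsdmd-/- at an adjusted p under 0.05 by edgeR. Among all genes tested there, 1.21% had an adjusted p under 0.05, and 0.813% had one and were lower.

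For each effector gene that was tested, the genes with the most similar profile over the 8 libraries were found by the root mean square difference of centred log2 CPM. For Mrc1 it was Gm37494 (0.0246), against a range of 0.63 for Mrc1 itself. For Il1rn they were Osgin2 (0.0608) and Snw1 (0.0609), for Chil3 H2-T-ps (0.102) and Cxcl16 (0.108), and for Cd163 Thbs1 (0.251) and Sorl1 (0.290).

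The receptors of the polarizing signals were present in the unstimulated cells, and 0 of 24 had an adjusted p under 0.05 or passed the study's cutoff, while 1 higher and 4 lower genes had an unadjusted p under 0.05. Of all genes tested, 4.74% were higher and 7.30% lower in Gsdmd-/- at that threshold. Their median log2 fold change was -0.08, with 8 above and 16 below 0, where the median of all genes tested was -0.0068. Il4ra, the receptor chain that binds interleukin-4 and is shared by the receptor of interleukin-13, had 194, 200, 186 and 190 CPM in WT 1 to 4 and 158, 159, 146 and 157 CPM in Gsdmd-/- 1 to 4. Every Gsdmd-/- library was below every WT library, with a log2 fold change of -0.31 (95% interval -0.47 to -0.16), but the adjusted p was 0.115 in the edgeR quasi-likelihood test. DESeq2 and the exact test of edgeR gave an adjusted p under 0.05, and without WT 2 and WT 3 the value was -0.31. Il10ra, the ligand-binding chain of the interleukin-10 receptor, did not overlap either, at 64.8 to 75.3 CPM in WT and 55.0 to 63.8 CPM in Gsdmd-/- (log2 fold change -0.23, adjusted p = 0.333 by edgeR). Without WT 2 and WT 3, its highest libraries, the log2 fold change of Il10ra was -0.15 with an unadjusted p of 0.157 by edgeR. The other chain of that receptor, Il10rb, did not overlap in the opposite direction, at 86.3 to 94.8 CPM in WT and 97.7 to 100 CPM in Gsdmd-/- (log2 fold change 0.13, adjusted p = 0.522 by edgeR). Ifngr1, the interferon-gamma receptor chain, had 65.2 and 62.0 CPM on average in WT and Gsdmd-/-, and Tlr4, the lipopolysaccharide receptor, 86.9 and 82.1 CPM, both with overlap. The second interferon-gamma receptor chain, Ifngr2, was the receptor gene that was higher at an unadjusted p under 0.05, with 127 ± 10.3 CPM in WT and 150 ± 8.4 CPM in Gsdmd-/- (SD, n = 4 each, log2 fold change 0.24, adjusted p = 0.318 by edgeR). Il10rb, Ifngr2 and the chains of the TSLP receptor, Crlf2 and Il7r, were looked up after other values had been seen. Crlf2 had a mean of 236 CPM in each genotype and Il7r 676 CPM in WT and 736 CPM in Gsdmd-/- (adjusted p = 0.995 and 0.593 by edgeR).

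Among 36 regulators of the effector genes, 1 was lower and 0 were higher at an adjusted p under 0.05, and 9 were lower and 3 higher at an unadjusted p under 0.05, where 7.30% and 4.74% of all genes tested were. The median log2 fold change was -0.10, with 7 above and 29 below 0. The regulator that passed was Irf1, the interferon-induced factor that acts on M1 genes such as Nos2 and Il12b. It had 31.7, 38.9, 44.8 and 44.3 CPM in WT 1 to 4 and 21.1, 21.0, 26.6 and 25.2 CPM in Gsdmd-/- 1 to 4, with no overlap. Its log2 fold change was -0.77 (SE 0.133, adjusted p = 0.0468, edgeR quasi-likelihood test). The call sat at the threshold: it was lost with limma voom and with upper-quartile scaling, and it held in 1 of the 8 fits that left out a library, where the adjusted p ran from 0.0237 to 0.233. It was 0.0695 without WT 2 and WT 3, with a log2 fold change of -0.70.

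At the study's cutoff, 1 regulator was higher and 3 were lower in Gsdmd-/-, with no overlap for any of them. Of all genes tested, 4.83% passed that cutoff and 7.60% showed no overlap. Bcl6, a repressor of inflammatory genes, had 9.19 ± 2.45 CPM in WT and 4.55 ± 0.548 CPM in Gsdmd-/- (SD, n = 4 each, log2 fold change -1.01, adjusted p = 0.0861 by edgeR). Atf3, a stress-induced repressor that limits Il6 and Il12b, had 501 ± 90.4 CPM and 344 ± 39.6 CPM (log2 fold change -0.54, adjusted p = 0.165 by edgeR). Nfkbiz, which encodes a nuclear cofactor needed for Il6, had 1.48 ± 0.630 CPM and 2.70 ± 0.861 CPM (log2 fold change 0.87, adjusted p = 0.365 by edgeR). DESeq2 and the exact test of edgeR gave Bcl6 and Atf3 an adjusted p under 0.05. Nfkbiz and Atf3 no longer passed the study's cutoff without WT 2 and WT 3, at log2 fold changes of 0.45 (unadjusted p 0.182) and -0.32. Nfkbiz also fell short of it without WT 2, WT 3 or Gsdmd-/- 1 (unadjusted p of 0.0668, 0.0683 and 0.119), and Atf3 without WT 3, at -0.44, and without Gsdmd-/- 2, at -0.49, and lay at the cutoff to 2 decimals, -0.50, without Gsdmd-/- 1. Stat6, the factor through which interleukin-4 acts, had 230 ± 20.4 CPM in WT and 228 ± 20.9 CPM in Gsdmd-/-, and Stat3, the factor of interleukin-10, 114 ± 6.49 CPM and 108 ± 8.24 CPM.

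**Figure D5:**
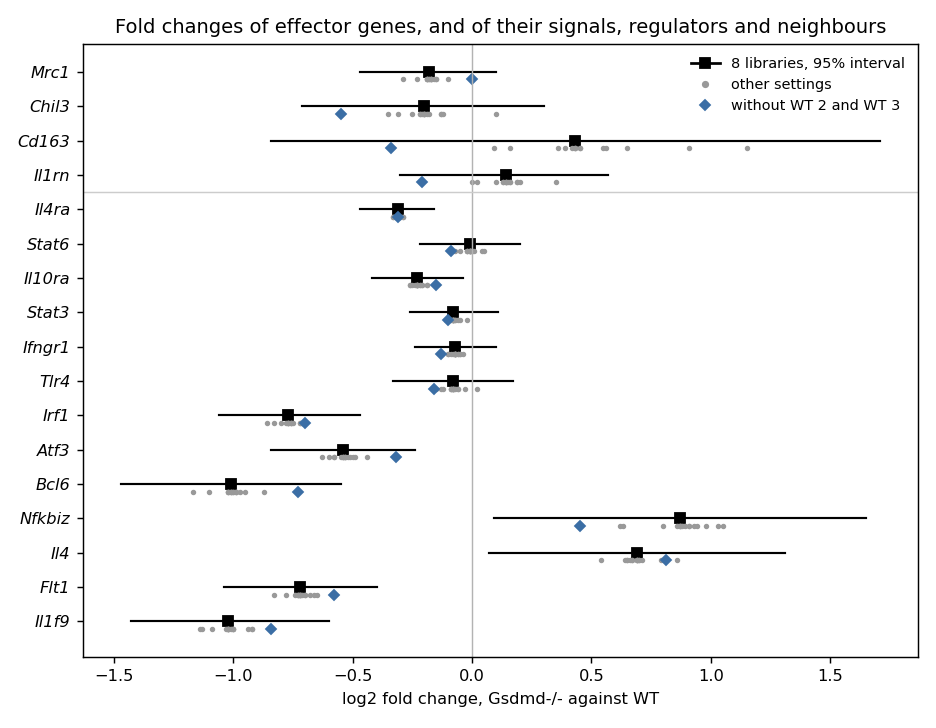
Log2 fold change, Gsdmd-/- against WT, of the 4 effector genes tested (above the line) and of their receptors, regulators, ligand and neighbours (below), with squares and 95% intervals from all 8 libraries, grey points for the other settings tried, and blue diamonds without WT 2 and WT 3. The intervals of the 4 effector genes include 0 and their diamonds lie at 0, -0.55, -0.34 and -0.21, while below the line the diamond of Nfkbiz lies at 0.45, that of Bcl6 at -0.73, that of Atf3 at -0.32 and that of Il4ra at -0.31.

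The wider activation programs held 0 genes with an adjusted p under 0.05 in the edgeR quasi-likelihood test, and 1 alternative and 3 classical activation genes, all lower, with an unadjusted p under 0.05. At that unadjusted threshold, 7.30% of all genes tested were lower and 4.74% higher. The study's cutoff was passed by 4.83% of them, and 7.60% showed no overlap. Of 25 alternative activation genes tested, 10 lay above and 15 below 0 with a median of -0.10, and 1 passed the study's cutoff. It was Flt1, a receptor for vascular endothelial growth factor, with 14.9 ± 1.77 CPM in WT and 9.03 ± 1.41 CPM in Gsdmd-/- (SD, n = 4 each, log2 fold change -0.72, adjusted p = 0.0805 by edgeR) and no overlap. DESeq2, the exact test of edgeR and the fit with no filter on low counts gave Flt1 an adjusted p under 0.05. Without WT 2 and WT 3 its log2 fold change was -0.58, with an adjusted p of 0.128 by edgeR. Of 20 classical activation genes tested, 5 lay above and 15 below 0 with a median of -0.16, and 1 passed that cutoff, Acod1, which encodes the itaconate-producing enzyme, with a log2 fold change of -1.10, overlap between the genotypes and an adjusted p of 0.368. When WT 2 and WT 3 were left out, 13 of the 158 genes of all the lists that were tested had an adjusted p under 0.05, all lower in Gsdmd-/-. In that fit 1.21% of all genes tested had an adjusted p under 0.05, and 0.813% were lower. They were Mgl2 and Pdcd1lg2 of the alternative program, Acod1, Ccl5 and Fcgr1 of the classical program, the receptor gene Il1r2, the regulator Rbpj, and the markers C1qa, C1qb, C1qc, Ly6c2, Ccr2 and Kmo.

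Of 12 ligand genes, 3 had enough counts, and Ifng, Il25, Ifnb1 and Il34 had 0 counts in all libraries. Il4 had 18, 23, 18 and 17 counts in WT 1 to 4 and 32, 41, 32 and 17 counts in Gsdmd-/- 1 to 4, so that Gsdmd-/- 4 lay among the WT libraries. The log2 fold change was 0.69 with an unadjusted p of 0.0314, which passes the study's cutoff, and an adjusted p of 0.364. With 1 library left out, the unadjusted p of Il4 ran from 0.00748 to 0.109, and Il4 no longer passed without WT 1, WT 3, WT 4, Gsdmd-/- 1, Gsdmd-/- 2 or Gsdmd-/- 3. The other ligand genes tested were Csf1, the gene of M-CSF, and Tgfb1, both looked up after other values had been seen. Csf1 had 175 to 210 CPM in WT and 147 to 174 CPM in Gsdmd-/-, with no overlap, a log2 fold change of -0.25 and an adjusted p of 0.333, and the log2 fold change of Tgfb1 was -0.10. The level of interleukin-4 RNA was thus between 1.03 and 2.42 CPM in all libraries.

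Of 18 tested genes of arginine and polyamine metabolism, the pathway from which Nos2 draws its substrate, 12 lay above and 6 below 0 with a median of 0.07. At the study's cutoff, which 4.83% of all genes tested passed, 2 were higher and 0 lower. At an unadjusted p under 0.05 alone, where 4.74% of all genes tested were higher and 7.30% lower, 3 were higher and 1 was lower. One of these was Ddah2, looked up after other values had been seen, with overlap and a log2 fold change of 0.77. Odc1 and Ass1, which make putrescine and recycle citrulline, had log2 fold changes of 0.07 and -0.16.

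Of the close paralogs and cluster neighbours of the effector genes, 5 had enough counts for a test, with 3 above and 2 below 0 and a median of 0.24. In the resistin-like cluster around Retnla, Retnlb had 1 count and Retnlg 0. In the interleukin-1 cluster, Il1f9, which encodes interleukin-36 gamma and ends 143.3 kb before Il1rn, had 15.3, 21.7, 24.7 and 21.4 CPM in WT 1 to 4 and 8.12, 8.52, 12.6 and 11.9 CPM in Gsdmd-/- 1 to 4. The groups did not overlap, and the log2 fold change was -1.02 (95% interval -1.43 to -0.60, adjusted p = 0.0641, edgeR quasi-likelihood test), on the same chromosome as Il1rn, whose own value was 0.14. The fit with no filter on low counts, DESeq2, the exact test of edgeR and a replicate block gave Il1f9 an adjusted p under 0.05. With 1 library left out, its adjusted p by edgeR ran from 0.0334 (without WT 1) to 0.248. Without WT 2 and WT 3 the log2 fold change of Il1f9 was -0.84, with an adjusted p of 0.1 by edgeR.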

How the data were processed

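Total RNA was extracted with TRIzol, and libraries were made with a TruSeq RNA kit that does not mark the strand. The authors deposited 1 table of read counts per gene for the 8 libraries, as whole numbers that were not normalized, and the column names gave the sample of each column. The submitters' processing notes name the build mm10, while the aligner, the counting tool and the annotation are not given in the sources used here. Positions and exon lengths were taken from GENCODE M21 (GRCm38).

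TMM scaling and the filter filterByExpr (edgeR 4.0.16, R 4.3.3) left 12911 genes, which were compared between Gsdmd-/- and WT by the two-sided quasi-likelihood test with genotype as the only term and Benjamini-Hochberg adjustment over all of them. The study's methods name limma and the legend of its volcano plot names edgeR. Voom (limma 3.58.1) was an alternative, as were DESeq2 1.42.0, the exact test of edgeR, other scalings and filters, a replicate block and leaving out libraries. For single genes an exact permutation test of the CPM was added, for which 0.0286 is the smallest p that 4 libraries against 4 allow. The tests were tested on simulated data with known changes.

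The 10 genes, the 15 gene lists (macrophage and 7 other sets of cell markers, both activation programs, receptors, regulators, ligands, arginine and polyamine metabolism, paralogs and neighbours) and the choice of alternatives were made with earlier results of these data known. Genes of the lists were named where the adjusted p was under 0.05, where they passed the study's cutoff without overlap, or where they directly drive or share reads with an effector gene. The other genes named, among them Acod1, Odc1, Ass1, Siglecf, Ear2 and Clec9a, were chosen after their values were seen. Of the 10 genes, 1 is not reported here, and neither are 1 similar profile and 1 gene of the lists. Similar profiles were sought among genes with a mean of at least 5 CPM. Intervals of count ratios are exact 95% intervals and cover counting error only.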

Additional observations from a re-analysis of the deposited data

Results flagged for a closer look

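In 5 cases 1 library of an effector gene lay far from the other 3 of its genotype by Dixon's test, all of them in groups of 4 libraries at 0 to 3 counts. Retnla had 0.0592 CPM in Gsdmd-/- 1, which is 1 count, and 0 in the other 3. Nos2 had 0.177 CPM, or 3 counts, in Gsdmd-/- 2 and 1 count in each of the other 3. Il6 had 0.0609 CPM, or 1 count, in WT 1 and 0.190 CPM, or 3 counts, in Gsdmd-/- 3, with 0 in the other libraries. Il12b had 0 counts in WT 3 and 1 count in each of WT 1, WT 2 and WT 4. Chance flags about 1 in 20 groups of continuous values, a rate that does not hold for such tied counts, where a single count among 3 zeros is always flagged. None of Mrc1, Chil3, Cd163 and Il1rn had such a library.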

How the results depend on the processing

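Among the alternatives tried for the effector genes, the number with an adjusted p under 0.05 stayed at 0, also at an adjusted p under 0.1. Without WT 2 and WT 3, 1 effector gene passed the study's cutoff and 1 had no overlap between the genotypes, where 6.19% and 22.7% of all genes tested did, and leaving out 1 library at a time gave 0 to 1 without overlap, against 9.09% to 17.3% of all genes. Without WT 2 and WT 3 the log2 fold changes of Mrc1, Cd163 and Il1rn were 0, -0.34 and -0.21, a change of sign or a loss of direction, and leaving out 1 library at a time gave -0.35 to 0.10 for Chil3, where it was WT 4 that turned the sign. Stat6 was 0 with upper-quartile scaling, 0.01 with no filter and -0.07 to 0.05 with 1 library left out, and Tlr4 was -0.15 to 0.02 with 1 library left out, both close to 0 throughout. The count of list genes with an adjusted p under 0.05, 1 with all libraries, was 0 with upper-quartile scaling and with limma voom, 4 with no filter, 6 with DESeq2 and with the exact test of edgeR, 2 with the replicate block, 0 to 2 with 1 library left out and 13 without WT 2 and WT 3. The cause of these changes was not tested. Same-numbered libraries of the genotypes did not deviate together in every pair (correlations of 0.0268, 0.182, 0.0412 and -0.201), so they were taken to share only a number, and the replicate block gave 25 genes in place of 45 over the whole table and 0 effector genes. Over the whole table, an adjusted p under 0.05 was found for 256 genes with DESeq2, 246 with the exact test, 109 with no filter, 14 to 84 with 1 library left out and 161 without WT 2 and WT 3. The 623 genes at the study's cutoff became 1204 with no filter and 1022 without WT 4. At a minimum of 10 counts in every library Cd163 was not tested. Of 321 values of single genes under the alternatives, 286 kept their direction and side of the threshold. At 0 to 4 counts per library, Retnla, Nos2, Il6, Il12b and Il10 were limited by depth.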
